A study of Rattus norvegicus with 17 samples.

Results

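The stepwise genes are the named genes whose mean transcript level in the fetal rat testis was higher at each dose of dipentyl phthalate (DPeP) than at the dose below it, from corn oil up to 300 mg/kg/d. A gene was a member when its group mean in TPM (read counts over gene length, scaled to a common library total) increased strictly over the 5 groups, reached at least 1 TPM at 300 mg/kg/d and was there at least 1.5 times the corn oil mean. Of 24044 named genes, 15160 had a mean of at least 1 TPM at 300 mg/kg/d, 1008 of these also met the ratio, and 110 of the 1008 increased at every step (10.9%). The rule leaves out 10 genes by name, of which Lcn2 and Stc1 met it and the other 8 did not, so 108 genes remained. Because the measured means chose the genes, their differences between doses are given below as a description, with no test.

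DPeP is a phthalate ester used as a plasticizer. Wild type Sprague Dawley dams received it by oral gavage in 2.5 mL/kg of corn oil from gestational day 17 to 21, and fetal testes were collected on day 21. The groups were corn oil alone (n = 3), and DPeP at 1 (n = 3), 11 (n = 3), 100 (n = 3) and 300 mg/kg/d (n = 5). A library held the RNA of 1 testis or of 2 pooled testes from a litter. The sources used here do not say whether every library had a separate dam, so the spread between libraries may be partly within litters or technical. If libraries shared a dam, the SDs, SEs and tests below could understate the spread between litters, the unit that was dosed.

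The fetal testis consists of cords, in which Sertoli cells surround the germ cells (gonocytes), and of an interstitium with steroid-producing Leydig cells, fibroblasts, vessels and macrophages. Phthalate esters of this kind are known in the fetal rat for lowering the transcripts of androgen synthesis in Leydig cells. In mouse, transcripts of type II and type IX collagen, better known from cartilage, are expressed during testis development, and Sox9, the factor that directs Sertoli cell fate, activates Col2a1 in cartilage.

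The 17 libraries held 14282274 to 20323488 gene counts. Replicates 05 and 18 at 100 mg/kg/d had 9.05% and 7.76% of their counts on mitochondrial genes, against 4.35% to 6.16% in the other 15 libraries. On the TPM scale the median named gene with at least 1 TPM at 300 mg/kg/d differed from corn oil by 0.10, 0.09, -0.08 and 0.08 (log2) at 1, 11, 100 and 300 mg/kg/d, whereas on CPM (counts scaled to a common library total) with library sizes from TMM, a method that centres the bulk of genes, it differed by 0.01, 0.01, 0.03 and 0.01. Small steps between doses therefore depend on the scale, and a TPM step at 1 mg/kg/d or at 11 mg/kg/d above corn oil includes that shift. On the TMM scale, 61 of the 108 genes increased at every step and 51 met the whole rule.

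Most stepwise genes were weakly expressed. Their median corn oil level was 1.99 TPM, against 18.5 TPM for all named genes with at least 1 TPM at 300 mg/kg/d, and 69 of the 108 stayed under 5 TPM at 300 mg/kg/d. Mean counts in corn oil were under 10 for 16 genes and 100 or more for 27. In the 92 genes with a mean corn oil count of 10 or more, the ratio of the 300 mg/kg/d mean to the corn oil mean was between 1.51 and 3.50, with a median of 1.76. Just inside the ratio threshold lay Lrrc74a (1.51) and Kif27 (1.52), and just outside it Klf17 (1.498) and Cysrt1 (1.496). At the level threshold, Psma8 (1.05 TPM) and Ccdc73 (1.10 TPM) lay just inside, and Defb51 (0.964 TPM) and Serpinb13 (0.950 TPM) just outside.

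**Figure D1:**
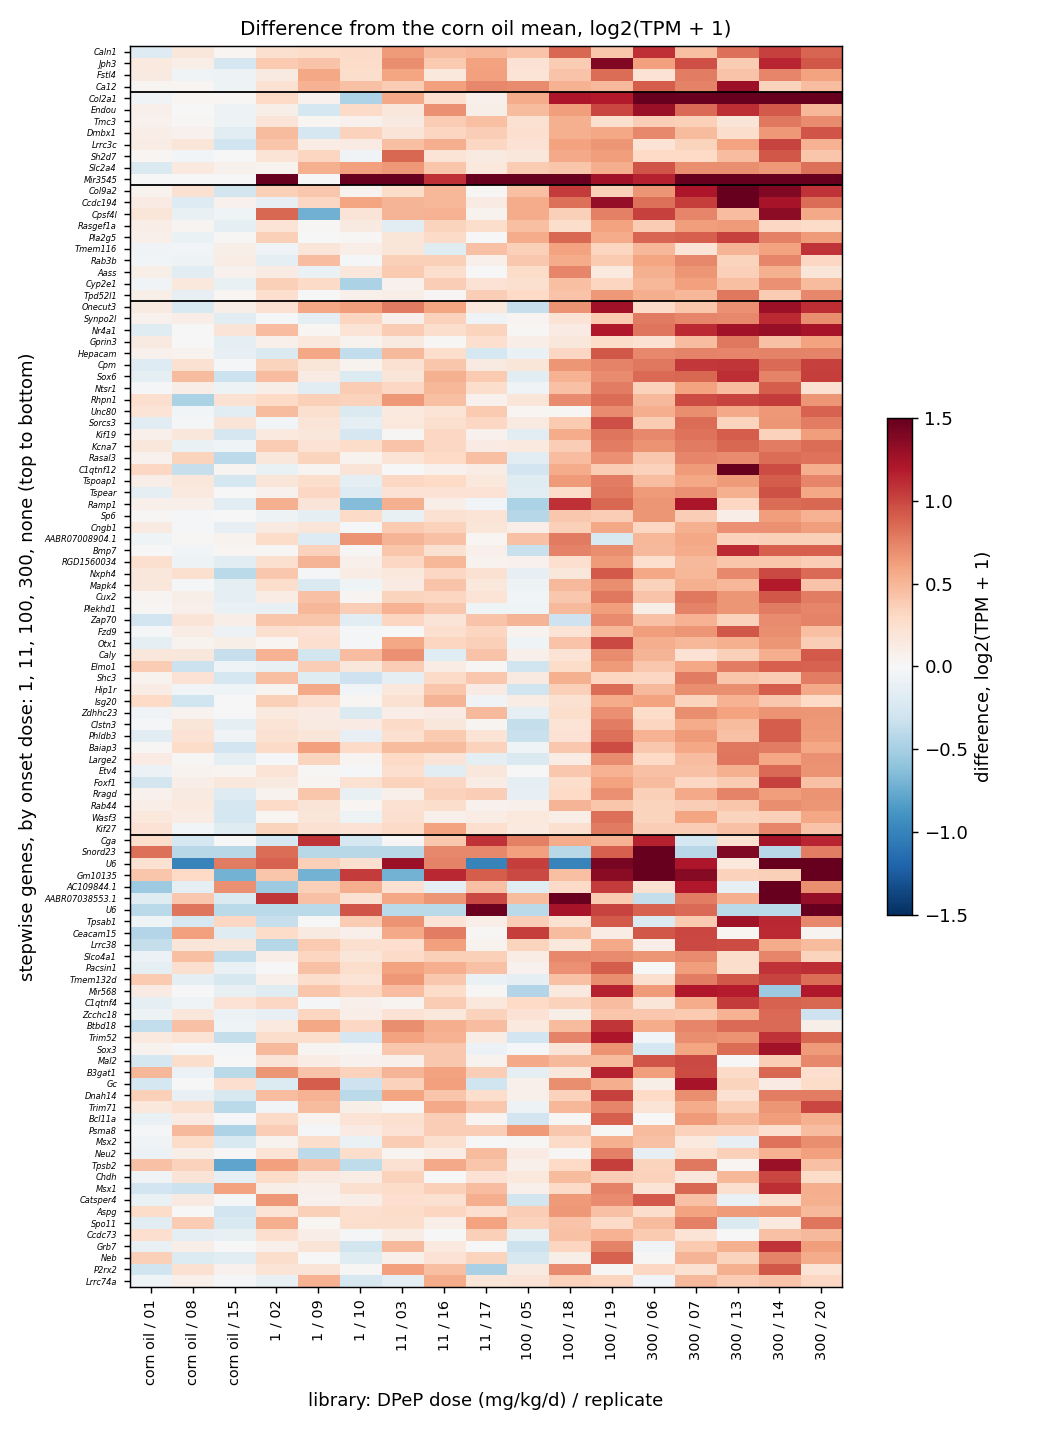
Difference of each library from the corn oil mean in log2(TPM + 1), for 107 of the 108 stepwise genes (rows, grouped by onset dose as defined in the text, with lines between groups) in the 17 libraries (columns, dose in mg/kg/d and replicate). Red is higher than the corn oil mean and blue lower. The column of replicate 05 at 100 mg/kg/d is paler than those of replicates 18 and 19 of the same dose.

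Col2a1 (ENSRNOG00000058560, chr7:129098786-129127546, minus strand, mRatBN7.2), the chain of type II collagen, had the highest ratio among the members with at least 100 mean corn oil counts. Its level was 6.91, 7.36 and 7.29 TPM in corn oil, 9.07, 7.57 and 4.93 TPM at 1 mg/kg/d, 11.2, 8.73 and 7.66 TPM at 11 mg/kg/d, 11.0, 18.0 and 17.7 TPM at 100 mg/kg/d, and 21.9 to 26.8 TPM with a median of 22.2 TPM at 300 mg/kg/d. All libraries at 11 mg/kg/d and above lay over every corn oil library, while those at 1 mg/kg/d lay on both sides. The means were 23.2 ± 2.07 TPM at 300 mg/kg/d (SD, n = 5) and 7.19 ± 0.24 TPM in corn oil (SD, n = 3), a ratio of 3.23 and a log2 fold change of 1.62 ± 0.18 (SE, edgeR). The step at 1 mg/kg/d was 0.0385% of the whole rise, and on the TMM scale or without the spike-in rows in the TPM total Col2a1 no longer met the rule.

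Col9a2 (ENSRNOG00000011502, chr5:134607616-134624677, plus strand), a chain of type IX collagen, which sits on the surface of type II collagen fibrils, was lower and more variable. It had 7.11 to 17.1 TPM with a median of 10.9 TPM at 300 mg/kg/d, against 4.33, 5.01 and 3.24 TPM in corn oil. Replicate 13 was the highest at 300 mg/kg/d, and the groups did not overlap. The ratio of the means was 2.74, and 39.6% of the rise had been reached at 100 mg/kg/d, where the libraries had 6.03, 9.66 and 5.58 TPM.

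Of a list of 15 cartilage matrix genes and their SOX regulators, written after these values were seen, 3 were strictly rising (Col2a1, Col9a2 and Sox6). In the edgeR fit of all genes, 5 of the 15 were called higher at 300 mg/kg/d, beside 0.994% of all genes tested, and no member of the list lower. The count includes the 3 stepwise genes, which the rule selected on this contrast. Of the 15, 13 had a positive log2 fold change, with a median log2 fold change of 0.67 beside 0.01 over all genes tested. Both values include the same 3 genes, so nothing is read from them. Called beside the stepwise genes were Col9a1, with 10.3 TPM at 300 mg/kg/d against 4.83 TPM in corn oil, and Col9a3, with 65.5 TPM at 300 mg/kg/d against 29.3 TPM in corn oil. Both had a lower mean at 1 mg/kg/d than in corn oil, 3.76 TPM for Col9a1 and 26.4 TPM for Col9a3. The remaining genes of the list were not called. Acan, the large proteoglycan of cartilage, had 5.02 TPM at 300 mg/kg/d against 3.01 TPM in corn oil, and Comp, Sox5, Col11a1 and Col11a2 had 2.29, 4.70, 16.1 and 5.64 TPM at 300 mg/kg/d against 1.27, 3.05, 12.6 and 4.01 TPM in corn oil. The lower means at 300 mg/kg/d were those of Hapln1 and Matn1, with 0.789 and 0.680 TPM at 300 mg/kg/d against 1.86 and 1.23 TPM in corn oil. Sox9 had 39.1 TPM at 300 mg/kg/d against 26.8 TPM in corn oil, which did not pass (edgeR adjusted p = 0.211).

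Transcription factors were the largest named role, with 13 genes, a median ratio of 1.73 and a median of 5.65 TPM at 300 mg/kg/d. In 9 of them every library at 300 mg/kg/d lay above every corn oil library, beside 9.1% of all named genes with at least 1 TPM at that dose, and in 1, Dmbx1, this held at 100 mg/kg/d, beside 4.3%. Since the rule used these means, nothing is read from these counts or from those by role that follow. Nr4a1 (ENSRNOG00000007607, chr7:132374840-132389297, plus strand), the orphan nuclear receptor Nur77 and an immediate early gene, had 23.5 to 33.7 TPM with a median of 32.1 TPM at 300 mg/kg/d, against 11.4, 13.0 and 15.0 TPM in corn oil. At 100 mg/kg/d it had 13.2, 14.3 and 31.2 TPM in replicates 05, 18 and 19, so that only replicate 19 lay in the range of the 300 mg/kg/d libraries. The mean was 30.2 ± 4.07 TPM at 300 mg/kg/d (SD, n = 5) and 13.1 ± 1.85 TPM in corn oil (SD, n = 3), with a log2 fold change of 1.13 ± 0.18 (SE).

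Sox6 (ENSRNOG00000020514, chr1:169729194-170277386, minus strand), a SOX factor without a transactivation domain that works with Sox5 and Sox9 in cartilage, had 5.14 to 6.89 TPM with a median of 5.64 TPM at 300 mg/kg/d, against 2.29, 4.08 and 1.91 TPM in corn oil. Corn oil replicate 08 lay well above the other two, and without it the log2 fold change was 1.43 in place of 1.04. The 100 mg/kg/d libraries, at 2.25, 4.23 and 4.97 TPM, overlapped the corn oil range.

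Etv4 (ENSRNOG00000020792, chr10:86706749-86721974, minus strand), an ETS factor induced by FGF signalling, was one of the higher members. It had 28.8 to 38.6 TPM with a median of 30.8 TPM at 300 mg/kg/d, against 19.8, 21.7 and 21.6 TPM in corn oil, without overlap. Its ratio was 1.53, and at 11 mg/kg/d only 13.3% of its rise had been reached. In the FGF and MAPK feedback list Etv4 was the only stepwise gene of 23 found. Of 22 tested, 3 were called higher, beside 0.994% of all genes tested, and none lower. The count includes Etv4, which the rule selected on this contrast. The median log2 fold change of the list was 0.26 beside 0.01 over all genes tested.

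Other transcription factors stood lower. Cux2, a homeodomain factor, averaged 10.2 ± 1.41 TPM at 300 mg/kg/d and 5.83 ± 0.55 TPM in corn oil. With Nr4a1, Sox6 and Etv4 it made up the 4 factors called higher in edgeR, beside 0.994% of all genes tested. Foxf1, a forkhead factor of visceral mesenchyme, averaged 8.6 ± 2.12 TPM at 300 mg/kg/d and 5.61 ± 1.03 TPM in corn oil, and the homeobox genes Msx1 and Msx2, targets of BMP signalling in limb and face, 5.65 ± 1.83 and 1.80 ± 0.72 TPM at 300 mg/kg/d against 3.48 ± 1.77 and 1.10 ± 0.38 TPM in corn oil. Both Msx genes overlapped between the groups. Sox3, the X-linked relative of the testis-determining gene Sry, had 5.61 to 17.9 TPM at 300 mg/kg/d against 6.76 to 7.25 TPM in corn oil, its lowest library at 300 mg/kg/d lying under all corn oil libraries.

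The reference promoters of 3 members just described are shown because they are the matrix and transcription factor members with the highest ratios among those with at least 5 TPM at 300 mg/kg/d and an entry (RefSeq, GRCr8, 250 bases before to 50 after the start). Capitals mark every match, on either strand, to the motifs searched. These were the TATA box, written TATAAA, the CCAAT box, written with its own letters, the core element of SOX factors, written AACAAT, and the site of nuclear receptors, written AGGTCA, with its longer SF-1 form, written TCAAGGTCA. The cAMP response element (CRE) was written TGACGTCA and its core part TGACG. The AP-1 site was written TGANTCA, the element of the GATA factors AGATAA, the E-box element CACGTG and the GC-rich box of Sp factors (GC box) GGGCGG. The nuclear receptor site lies within the SF-1 site and the CRE core within the CRE.
Col9a2, chr5:139892548-139892847, plus strand: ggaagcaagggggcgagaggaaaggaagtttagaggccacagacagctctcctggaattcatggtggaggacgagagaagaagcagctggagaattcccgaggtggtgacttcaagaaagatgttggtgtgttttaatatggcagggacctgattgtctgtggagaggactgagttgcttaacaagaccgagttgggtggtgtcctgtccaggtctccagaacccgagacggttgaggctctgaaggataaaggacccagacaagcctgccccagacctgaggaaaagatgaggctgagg
Nr4a1, chr7:134259888-134260187, plus strand: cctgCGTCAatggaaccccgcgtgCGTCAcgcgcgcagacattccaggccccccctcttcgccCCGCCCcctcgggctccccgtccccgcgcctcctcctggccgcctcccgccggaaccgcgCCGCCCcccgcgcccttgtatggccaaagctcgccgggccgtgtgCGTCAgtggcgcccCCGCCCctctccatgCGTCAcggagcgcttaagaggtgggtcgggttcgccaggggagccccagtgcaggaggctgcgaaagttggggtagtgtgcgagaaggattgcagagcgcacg
Sox6, chr1:179665322-179665621, minus strand: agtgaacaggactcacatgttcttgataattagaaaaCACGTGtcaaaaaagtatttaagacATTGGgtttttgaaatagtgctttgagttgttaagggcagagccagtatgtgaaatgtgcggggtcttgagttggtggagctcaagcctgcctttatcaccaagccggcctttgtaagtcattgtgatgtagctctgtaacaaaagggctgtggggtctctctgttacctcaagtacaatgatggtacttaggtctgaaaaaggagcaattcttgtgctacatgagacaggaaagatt

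The Nr4a1 window holds 4 CRE cores and 3 GC boxes, the Sox6 window an E-box and a CCAAT box, and the Col9a2 window no match to these letters. Of all 27457 rat promoters of this length, 22.0% hold a CRE core, 34.9% a GC box, 6.65% the E-box and 37.7% a CCAAT box. A match describes the letters and not a bound site. Only 70 of the 108 members (64.8%) matched an entry by symbol, so shares of motifs over the members are not given.

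**Figure D2:**
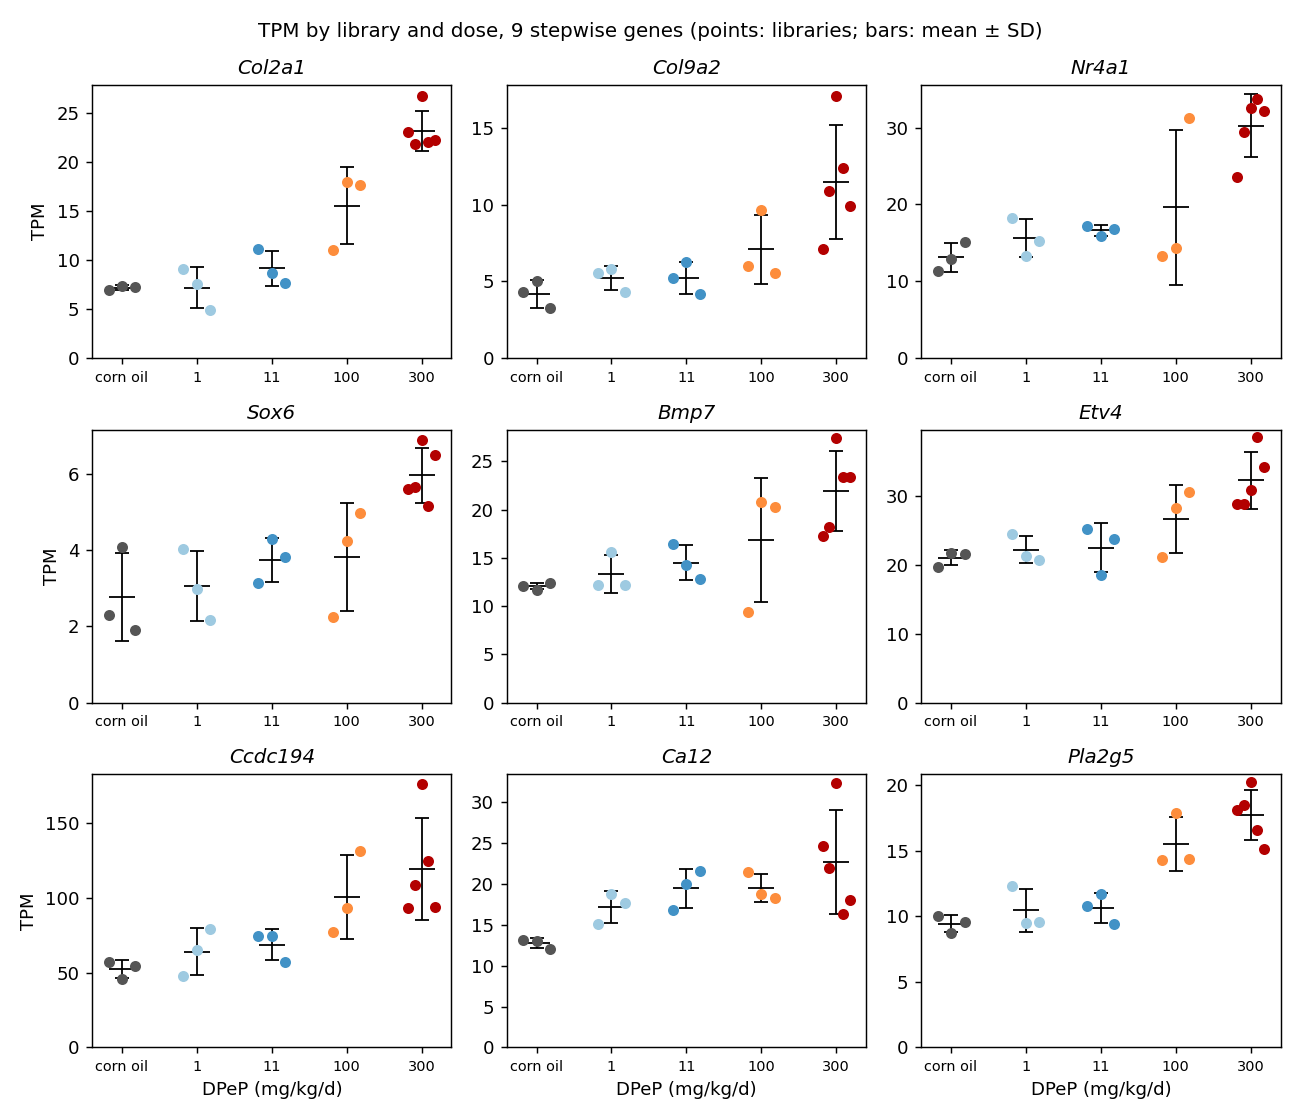
TPM of 9 stepwise genes in every library (points) by dose in mg/kg/d, with the mean and SD of each group (bars); each axis starts at 0. For all 9 genes the 5 libraries at 300 mg/kg/d lie above all corn oil libraries. For Nr4a1 and Bmp7 the 100 mg/kg/d points spread from the corn oil range or below to that of 300 mg/kg/d.

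The secreted proteins were 11 genes, of which 4 were called and 6 without overlap at 300 mg/kg/d, beside 0.994% and 9.1% of all genes. Among them, Bmp7 (ENSRNOG00000053384, chr3:161516462-161716788, minus strand), a bone morphogenetic protein of the TGF-beta family, had 12.1, 11.7 and 12.4 TPM in corn oil, 12.2, 15.6 and 12.2 TPM at 1 mg/kg/d, 16.4, 14.3 and 12.8 TPM at 11 mg/kg/d, 9.39, 20.8 and 20.2 TPM at 100 mg/kg/d and 17.3 to 27.4 TPM with a median of 23.4 TPM at 300 mg/kg/d. All libraries at 11 and 300 mg/kg/d lay above corn oil, whereas replicate 05 at 100 mg/kg/d lay below it. The mean was 21.9 ± 4.15 TPM at 300 mg/kg/d (SD, n = 5) and 12.1 ± 0.33 TPM in corn oil (SD, n = 3), with a log2 fold change of 0.79 ± 0.19 (SE). Bmp7 was the only one of the 108 that met the rule in each of the 17 settings that leave out 1 library. It was the only stepwise gene in the list of TGF-beta, BMP and activin genes. In that list 1 of 25 was called higher, beside 0.994% of all genes tested, and 1 lower, beside 253 of all 18005. The median log2 fold change of the list was 0.21.

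C1qtnf12, the adipokine adipolin, was the second most abundant member. It had 28.7 to 72.1 TPM with a median of 35.3 TPM at 300 mg/kg/d, against 27.9, 17.3 and 23.0 TPM in corn oil, and replicate 13 was far above the rest. Only 21.0% of its rise had been reached at 100 mg/kg/d. Pla2g5 (ENSRNOG00000016838, chr5:151041340-151062658, minus strand), a secreted phospholipase A2, differed in that its libraries at 100 mg/kg/d, at 14.3, 17.9 and 14.4 TPM, already cleared the corn oil values of 10.0, 8.75 and 9.54 TPM. At 300 mg/kg/d Pla2g5 averaged 17.7 ± 1.93 TPM against 9.43 ± 0.64 TPM in corn oil, with 73.4% of the rise reached at 100 mg/kg/d.

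Endou, an endoribonuclease, had 1.98 to 4.16 TPM at 300 mg/kg/d against 1.23, 1.11 and 1.00 TPM in corn oil, and all libraries from 11 mg/kg/d upward lay above corn oil. Fstl4, of the follistatin-like family, had libraries above corn oil at every dose, 1.26, 2.07 and 1.48 TPM at 1 mg/kg/d against 1.25, 0.983 and 0.948 TPM in corn oil, the nearest libraries being almost level. Cga, the alpha subunit shared by the pituitary glycoprotein hormones, met the rule at 5.4 mean counts at 300 mg/kg/d against 1 in corn oil, and its groups overlapped. Tpsab1 and Tpsb2, tryptases of mast cells, had 1.41 ± 0.90 and 4.44 ± 1.95 TPM at 300 mg/kg/d against 0.447 ± 0.29 and 2.72 ± 1.49 TPM in corn oil, both overlapping. Of 9 measured genes in a list of 11 mast cell genes, written after these values were seen, the tryptases alone increased at every step. Cpa3, the mast cell carboxypeptidase, had 0.535 TPM at 300 mg/kg/d against 0.632 TPM in corn oil, and Fcer1a, a chain of the IgE receptor, was listed at 0 in every corn oil library. Of the 6 genes of the list tested in edgeR, 5 had a positive log2 fold change at 300 mg/kg/d, and 0 were called. The median was 0.37, beside 0.01 over all genes tested. These values include the tryptases, which the rule selected on this contrast.

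Receptors and adhesion proteins (8 genes) had a median ratio of 1.89 and 1 called gene, Fzd9, beside 0.994% of all genes tested. Fzd9, a Wnt receptor, had 5.99 to 8.69 TPM at 300 mg/kg/d against 4.04, 4.49 and 3.78 TPM in corn oil. Ramp1, which forms the receptor for calcitonin gene-related peptide with its partner, had 10.2 to 20.1 TPM at 300 mg/kg/d against 8.48, 8.53 and 7.10 TPM in corn oil, and at 100 mg/kg/d 5.50, 18.3 and 15.4 TPM. Its exons overlap another gene model, so its counts are uncertain. Hepacam, an adhesion protein of glia and liver, had libraries within 2.53 to 2.59 TPM at 300 mg/kg/d, against 1.25, 1.22 and 0.972 TPM in corn oil, and wider spreads at the other doses. Among the others, Ntsr1, Sorcs3, Clstn3, P2rx2 and Ceacam15, the 300 mg/kg/d means were between 1.21 and 10.1 TPM.

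Channels, transporters and proteins of calcium stores (10 genes) had a median ratio of 1.93, 5 called genes and 7 without overlap at 300 mg/kg/d, beside 0.994% and 9.1% of all genes. Kcna7 (ENSRNOG00000020779, chr1:95886073-95891565, plus strand), a voltage-gated potassium channel, had 6.59 to 7.64 TPM with a median of 7.17 TPM at 300 mg/kg/d, against 4.33, 3.43 and 3.56 TPM in corn oil. Slc2a4, the insulin-responsive glucose transporter GLUT4, averaged 4.32 ± 0.68 TPM in corn oil, 6.08 ± 1.40 at 1, 6.09 ± 1.18 at 11, 6.21 ± 0.43 at 100 and 7.98 ± 0.76 TPM at 300 mg/kg/d, so that the 3 middle doses were within 1 SD of each other. Jph3, a junctophilin that ties the plasma membrane to the calcium store, had 2.69, 2.78 and 2.42 TPM at 1 mg/kg/d and 2.67 to 5.23 TPM at 300 mg/kg/d, against 2.12, 2.02 and 1.36 TPM in corn oil, and its libraries lay above corn oil at every dose. The others called were Jph3, Slc2a4, Unc80, which scaffolds a sodium leak channel, and Cngb1, a subunit of the cyclic nucleotide-gated channel.

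Enzymes were 11 genes, of which 3 were called higher at 300 mg/kg/d, beside 0.994% of all genes tested. They included Ca12 (ENSRNOG00000017766, chr8:67274359-67330440, plus strand), a membrane carbonic anhydrase. Ca12 had 13.2, 13.0 and 12.1 TPM in corn oil, 15.1, 18.8 and 17.7 TPM at 1 mg/kg/d, 16.9, 20.0 and 21.6 TPM at 11 mg/kg/d, 21.4, 18.8 and 18.3 TPM at 100 mg/kg/d and 16.3 to 32.4 TPM with a median of 22.0 TPM at 300 mg/kg/d. Every dosed library lay above every corn oil library, but the libraries of neighbouring doses overlapped. Its rise stood at 44.7%, 67.8% and 68.1% of the whole at 1, 11 and 100 mg/kg/d. Cpm (ENSRNOG00000066159, chr7:53225696-53286220, plus strand), the membrane carboxypeptidase M, had 6.32 to 7.87 TPM at 300 mg/kg/d against 2.69, 3.95 and 3.16 TPM in corn oil, a ratio of 2.22. Cyp2e1, a cytochrome P450 that oxidizes ethanol and small solvents, averaged 6.05 ± 0.50 TPM at 300 mg/kg/d and 3.85 ± 0.50 TPM in corn oil. Zdhhc23, a palmitoyltransferase, was the third called enzyme, at 8.32 ± 1.06 TPM at 300 mg/kg/d and 5.20 ± 0.24 TPM in corn oil.

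Signal adapters, kinases and regulators of small GTPases were 11 genes, of which 5 were called and 10 without overlap at 300 mg/kg/d, beside 0.994% and 9.1% of all genes. Rragd (ENSRNOG00000007331, chr5:47373463-47409356, plus strand), a Rag GTPase that brings mTORC1 to the lysosome, had 28.5 to 37.7 TPM with a median of 34.5 TPM at 300 mg/kg/d, against 23.1, 24.3 and 19.1 TPM in corn oil. Rhpn1 had 5.46 to 8.61 TPM at 300 mg/kg/d against 4.49, 2.32 and 4.43 TPM in corn oil. Elmo1, which activates Rac in the engulfment of dying cells and in mouse does so in Sertoli cells, had 11.0 to 16.0 TPM at 300 mg/kg/d against 10.9, 6.31 and 7.70 TPM in corn oil, the nearest libraries of the groups being almost level. Hip1r, an endocytic adaptor, averaged 18.8 ± 2.25 TPM at 300 mg/kg/d and 11.4 ± 0.83 TPM in corn oil.

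Genes best known from synapses and vesicles (7 genes) had a median ratio of 1.72. Caln1, a calcium-binding protein of neurons, had 2.31, 2.39 and 2.44 TPM at 1 mg/kg/d and 2.85 to 5.03 TPM at 300 mg/kg/d, against 1.45, 2.17 and 1.87 TPM in corn oil, without overlap at any dose. Baiap3, of the Munc13 family, averaged 19.0 ± 2.16 TPM at 300 mg/kg/d and 12.1 ± 2.56 TPM in corn oil, and Tspoap1, which binds RIM proteins and calcium channels, 3.83 ± 0.57 TPM at 300 mg/kg/d and 2.05 ± 0.48 TPM in corn oil. These 3 were the called genes of the role, beside 0.994% of all genes tested.

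The sarcomere proteins were Synpo2l and Neb (nebulin). Synpo2l had 1.32 to 2.10 TPM at 300 mg/kg/d against 0.496, 0.531 and 0.281 TPM in corn oil, with only 21.1% of the rise reached at 100 mg/kg/d. It was the only stepwise gene of 19 found in the striated muscle list. The 18 tested genes of that list included 4 called higher, beside 0.994% of all genes tested, and 2 lower, beside 253 of all 18005. The summed level of the list was 296 to 360 TPM at 300 mg/kg/d and 292 to 324 TPM in corn oil. The germ cell genes Spo11, which makes meiotic double-strand breaks, Psma8, a testis proteasome subunit, Btbd18, a factor of piRNA transcription in mouse, and Trim71, an RNA-binding protein of early germ and stem cells, overlapped between 300 mg/kg/d and corn oil, with 1.05 to 4.20 mean TPM at 300 mg/kg/d. They were outside the 31 genes called higher in edgeR at this dose, and 2 had an unadjusted p under 0.05. That level was met by 2391 of all 18005 genes tested and by 87 of the 99 stepwise genes tested. The rule selected on this contrast, so nothing is read from the 2. The motor proteins Kif19, Kif27 and Dnah14 had ratios of 1.92, 1.52 and 1.66.

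The most abundant member, Ccdc194 (ENSRNOG00000062469, chr16:18205095-18209283, minus strand), a coiled-coil protein, belonged to the 21 genes with no role given. It had 57.1, 45.7 and 54.5 TPM in corn oil, 47.8, 64.9 and 79.0 TPM at 1 mg/kg/d, 74.7, 74.2 and 56.8 TPM at 11 mg/kg/d, 77.0, 93.2 and 131 TPM at 100 mg/kg/d and 93.4 to 176 TPM with a median of 108 TPM at 300 mg/kg/d. Overlap with corn oil ended at 100 mg/kg/d, 1 library at 11 mg/kg/d lying just below the highest corn oil value. The other abundant members of this group, Phldb3 and Tpd52l1, averaged 27.1 ± 3.56 and 24.5 ± 2.96 TPM at 300 mg/kg/d and 17.2 ± 2.45 and 15.9 ± 1.23 TPM in corn oil. Tmem132d, a membrane protein expressed in brain, had 4.42 to 8.31 TPM at 300 mg/kg/d against 5.03, 3.15 and 2.91 TPM in corn oil, which overlapped.

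The 5 small RNA models rested on few reads. The libraries were selected for polyA RNA, so reads on these models do not measure the mature small RNA. Mir568 had 14.3 to 50.3 TPM at 300 mg/kg/d against 23.2, 21.1 and 19.6 TPM in corn oil, replicate 14 lying below corn oil, from 27.8 mean counts at 300 mg/kg/d and 15 in corn oil. Mir3545 was listed at 0 in all 3 corn oil libraries, a value that allows up to 3 counts in a library taken alone. It had 4 mean counts at 300 mg/kg/d, so no ratio is given. A pair of U6 models and Snord23 had 1 or fewer mean counts in corn oil and 1 to 4.2 at 300 mg/kg/d. The mature miRNAs of both loci (RefSeq, GRCr8) are shown to identify the models, with the seed, bases 2 to 8, in capitals, and the 3 seeds differ.
rno-miR-203b-3p (Mir3545): uUGAACUGuuaagaaccacugg
rno-miR-203b-5p (Mir3545): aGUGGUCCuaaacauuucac
rno-miR-568 (Mir568): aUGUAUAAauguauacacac

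The dose at which the genes first stood apart from corn oil was read as the onset dose, the lowest dose from which that dose and all higher ones had every library above the highest corn oil library. It was 1 mg/kg/d for 4 genes (Caln1, Jph3, Fstl4 and Ca12), 11 mg/kg/d for 9, among them Col2a1, Endou, Tmc3, Dmbx1, Lrrc3c, Sh2d7, Slc2a4 and Mir3545, 100 mg/kg/d for 10, among them Col9a2, Ccdc194, Pla2g5, Rab3b, Aass, Cyp2e1 and Tpd52l1, and 300 mg/kg/d for 46. In 39 genes even 300 mg/kg/d overlapped with corn oil. Over all 15160 named genes with at least 1 TPM at 300 mg/kg/d, the onset doses from low to high held 0.125%, 0.231%, 0.858% and 7.89% of genes. On TMM-scaled CPM, onset was at 100 mg/kg/d for 32 stepwise genes and at 300 mg/kg/d for 26. For Mir3545 the libraries at 11 mg/kg/d held 4, 1 and 2 counts against 0 in each corn oil library, so its onset rests on few reads and was not tested. Low genes of onset 11 mg/kg/d were Tmc3, Dmbx1, Lrrc3c and Sh2d7, averaging 1.10, 1.86, 1.5 and 1.73 TPM at 300 mg/kg/d against 0.486, 0.854, 0.705 and 0.924 TPM in corn oil.

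All libraries of a dose lay above all corn oil libraries in 9, 30, 29 and 69 of the 108 stepwise genes at 1, 11, 100 and 300 mg/kg/d, beside 14.4%, 12%, 4.3% and 9.1% of the 15160 named genes with at least 1 TPM at 300 mg/kg/d. At 1 mg/kg/d the share of stepwise genes, 8.33%, was below that background. The rule used the means of all doses, so none of these shares carries weight of its own.

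Of the rise between corn oil and 300 mg/kg/d, the median stepwise gene had reached 18.5% at 1, 40.3% at 11 and 64.0% at 100 mg/kg/d. The largest of the 4 steps was the last in 56 genes, as for Nr4a1, Col9a2 and C1qtnf12, the first in 21, the second in 14 and the third in 17, as for Pla2g5 and Ccdc194. Few single steps were larger than the spread between libraries: the difference of neighbouring means exceeded the larger of their SDs in 19, 14, 10 and 18 genes at the 4 steps from low to high dose. The 898 named genes that met the level and ratio but not the order had reached 36.5%, 31.7% and 39.0% (medians) at 1, 11 and 100 mg/kg/d, and 536 of them failed at exactly 1 step.

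**Figure D3:**
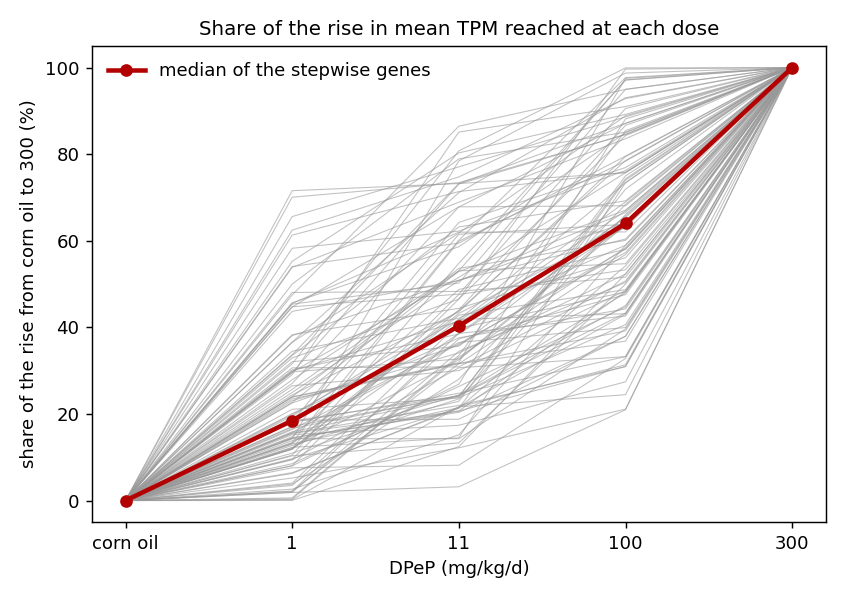
Share of the rise in mean TPM from corn oil (0%) to 300 mg/kg/d (100%) reached at each dose, for each of the 108 stepwise genes (grey lines) and their median (red). The median passes through 18.5%, 40.3% and 64.0%, and single genes run between 21.0% and 99.9% at 100 mg/kg/d.

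In the edgeR quasi-likelihood fit of all 17 libraries, 99 of the 108 genes had enough counts to be tested. At 300 mg/kg/d, 31 of them were called higher (Benjamini-Hochberg adjusted p under 0.05 over 18005 genes), where 0.994% of all tested genes were called higher, and none lower. With the sample code of the titles as a term in the fit 12 were called, and without corn oil replicate 15, 01 or 08 the number was 10, 14 or 16. At 100 mg/kg/d, 6 were called higher, beside 0.494% of all tested genes, namely Col2a1, Ccdc194, Cpm, Kcna7, Pla2g5 and Tpd52l1, all of them also called at 300 mg/kg/d. At 1 and 11 mg/kg/d, 0 genes were called among all tested (percent called 0), with 891 and 633 genes at an unadjusted p under 0.05, of which 0 and 7 were stepwise genes, and DESeq2 called 0 and 26 genes. The median log2 fold change of the 99 was 0.12, 0.30, 0.64 and 0.75 at 1, 11, 100 and 300 mg/kg/d, beside 0.01, 0.01, 0.05 and 0.01 over all genes tested. Since the rule selected on these same contrasts, nothing is read from these counts. The comparisons share the corn oil libraries.

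The position at 100 mg/kg/d rested on libraries that disagreed. Replicate 05 was the lowest of its group in 81 stepwise genes and replicate 19 the highest in 77, and among all named genes with at least 1 TPM at 300 mg/kg/d these shares were 57.8% and 66.7%. Above every corn oil library lay 40 stepwise genes in replicate 05, 85 in replicate 18 and 102 in replicate 19. Among all named genes with at least 1 TPM at 300 mg/kg/d the shares were 21.5%, 20.6% and 44.6%. The rule used the mean of these libraries, so nothing is read from the counts. Replicate 19 reached or passed the mean of 300 mg/kg/d in 61 genes, while replicate 05 was below the mean of 11 mg/kg/d in 79. Mitochondrial share moved with this order (9.05%, 7.76% and 5.26% in replicates 05, 18 and 19), and its part in the result was not tested. Without replicate 19, 51 genes met the rule, of which 40 were among the 108, and without replicates 05 and 18, 72 met it, of which 35 were among the 108.

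**Figure D4:**
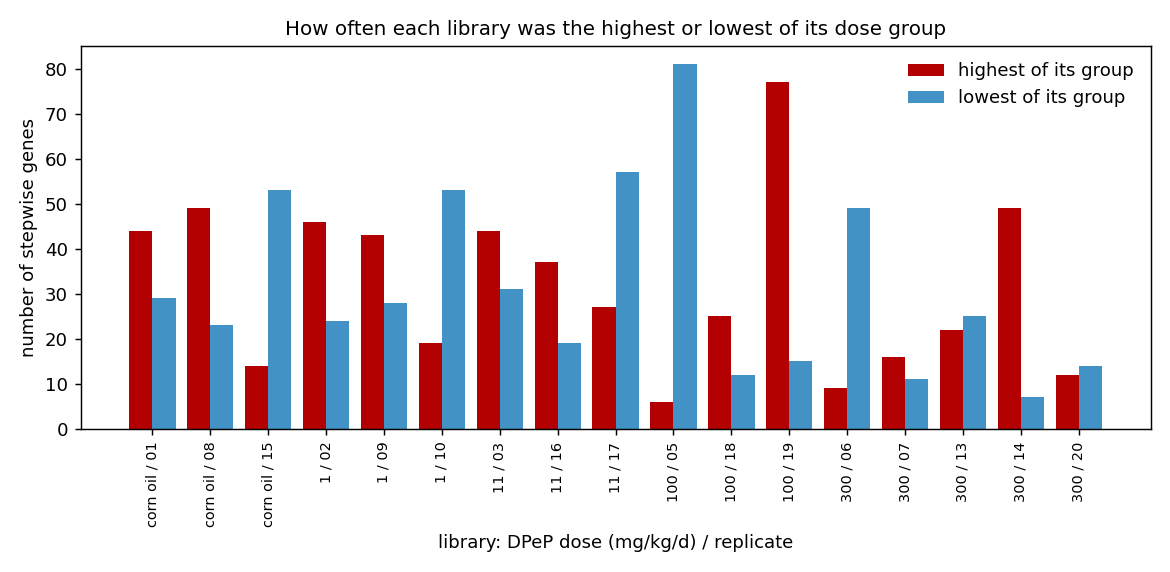
Number of the 108 stepwise genes for which each library was the highest (red) or the lowest (blue) of its own dose group. At 100 mg/kg/d replicate 05 is the lowest in 81 genes and replicate 19 the highest in 77, and at 300 mg/kg/d replicate 14 is the highest and replicate 06 the lowest in 49 each.

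Membership was sensitive to single libraries throughout. Leaving out 1 library at a time gave between 51 and 149 genes, the highest number without corn oil replicate 08, where 93 of the 108 stayed. With group medians in place of means 96 genes met the rule, 33 of them among the 108. Cpm, Rhpn1, C1qtnf4 and Tmem116 met the rule in 16 of the 17 settings without 1 library. They also met it on the TMM scale, with medians, without replicates 05 and 18 at 100 mg/kg/d and without the spike-ins. Bmp7 met it in all of these settings. Col2a1 met it in 14 of 17, Sox6 in 12 and Etv4 in 11.

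**Figure D5:**
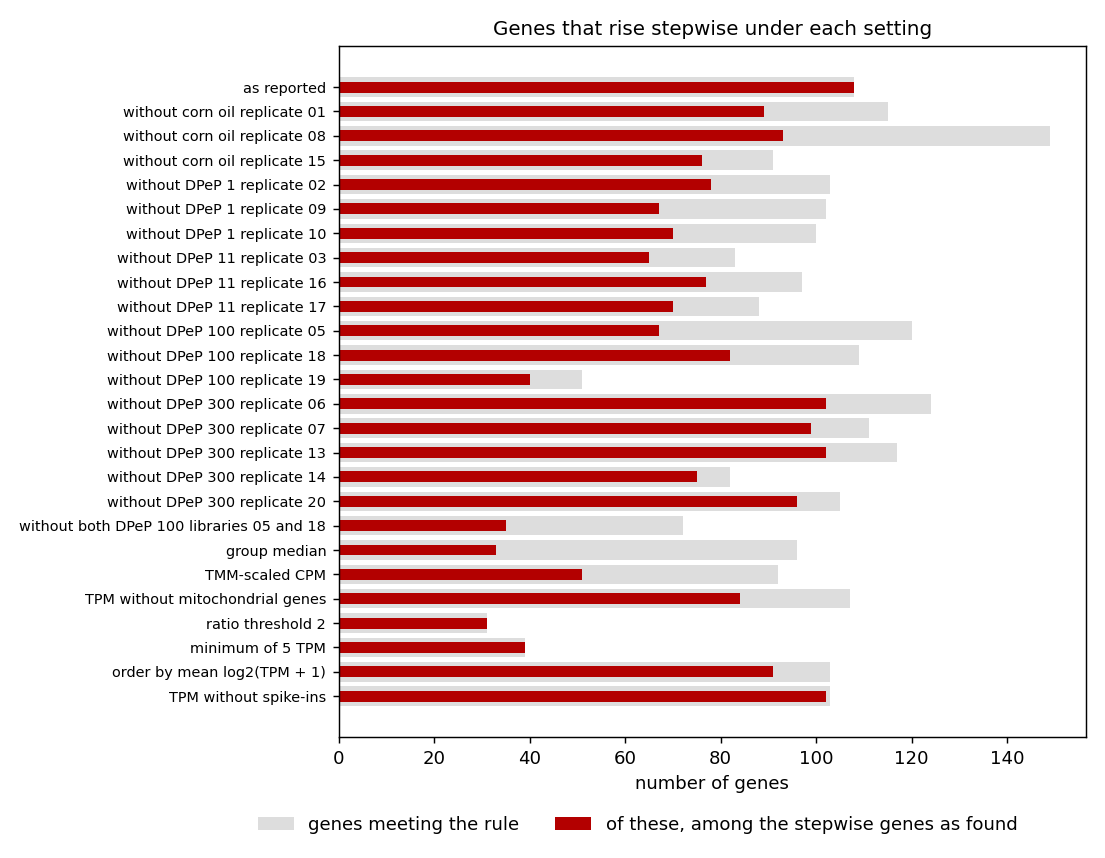
Number of genes that met the stepwise rule under each setting (grey bars) and how many of these were among the 108 (red bars). The red bar is shortest for a ratio of 2, at 31, and for the group median, at 33, and stays at 102 without the spike-ins in the TPM total.

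The titles give each library a sample code, S446, S447 or S448, which the sources used here do not explain. Within S448, all 108 genes were higher at 300 mg/kg/d (n = 3) than in corn oil (n = 1), and within S447 106 of 108 (n = 2 against 1), beside 55.8% and 65.9% of the named genes with at least 1 TPM. At 1 mg/kg/d the numbers were 56, 84 and 83 in S446, S447 and S448 (1 library against 1 each), beside 59.3%, 69.6% and 54.4% of those genes. The rule chose the stepwise genes on the means of these same libraries, so these counts are no replication and nothing is read from them.

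For the cell of origin, none of the 108 stood in the fixed marker lists of Sertoli cells, fetal Leydig cells, interstitial fibroblasts, myoid cells, gonocytes, endothelium, macrophages, red blood cells, ducts, surface epithelium or Schwann cells, and 1 (Synpo2l) stood in that of striated muscle. Lcn2, a gene of the duct list, met the rule but was left out by name, so the absence of members from that list reflects this choice. Sox8, Amh, Clu and Fgf9 of the Sertoli list and Sox10 of the Schwann list were also left out, but did not meet the rule. In whole tissue, fewer cells of a type and less RNA per cell cannot be told apart. The Sertoli list had a summed level of 6732 to 9634 TPM at 300 mg/kg/d and 5916 to 7173 TPM in corn oil. Its median log2 fold change was 0.25, with 6 of 21 genes called higher and 1 lower. Over all 18005 genes tested, 0.994% were called higher and 253 genes lower. Amh alone averaged 3401 TPM at 300 mg/kg/d and 1829 TPM in corn oil, a large part of the Sertoli sum. The Leydig list had 2087 to 2951 TPM at 300 mg/kg/d and 6024 to 7625 TPM in corn oil, with 15 of 16 genes called lower and a median log2 fold change of -1.97. Gonocyte markers summed to 895 to 1144 TPM at 300 mg/kg/d and 821 to 1001 TPM in corn oil, with 1 of 18 called higher and 16 of 18 positive in log2 fold change. Their median log2 fold change was -0.35, 0.05, 0.59 and 0.22 at 1, 11, 100 and 300 mg/kg/d. At 100 mg/kg/d they summed to 1033 to 1335 TPM. The myoid and smooth muscle list had 3214 to 4204 TPM at 300 mg/kg/d and 2768 to 2998 TPM in corn oil. Its log2 fold change was positive in 14 of 14 genes, with a median of 0.30 and 0 genes called. At 1 mg/kg/d this list already had 3280 to 4298 TPM. The macrophage list had 197 to 239 TPM at 300 mg/kg/d and 255 to 316 TPM in corn oil, with 1 of 14 genes called lower. The lists of ducts and of surface epithelium summed to 436 to 545 and 422 to 510 TPM at 300 mg/kg/d against 280 to 322 and 342 to 375 TPM in corn oil. Lcn2 alone, in the duct list, averaged 136 TPM at 300 mg/kg/d and 32.1 TPM in corn oil. The part of these shifts in the levels of the stepwise genes was not tested. The summed level of the 108 genes themselves was 732 to 969 TPM at 300 mg/kg/d, against 439 to 479 TPM in corn oil.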

How the data were processed

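RNA-seq of fetal rat testes gave 17 libraries in 5 dose groups. The submitters' processing notes name Trimmomatic 0.36, STAR 2.5.2b, featureCounts, Subread 1.5.2, DESeq2 and limma, with the build mRatBN7.2. The deposited files hold raw read counts per gene, per the file headers. The kit does not mark strand, so overlapping and antisense genes have uncertain counts (12 members share exonic bases with another model). The deposited TPM table of the authors repeats rows (47125 for 30652 identifiers), so column sums exceed those of TPM and it is treated as a score; each identifier was kept once, and the values then matched counts over length within 5e-05. TPM totals include 92 spike-in rows (1.66% to 3.56% of TPM). The sources used here do not give the release of the gene models or whether counting used strand.

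Counts were fitted with edgeR 4.0.16 in R 4.3.3 (TMM, filterByExpr by group, quasi-likelihood F test, 18005 genes tested), and DESeq2 1.42.0 was an alternative. The script was tested on simulated counts. Standard errors belong to the log2 fold change. Depth was 14282274 to 20323488 gene counts per library.

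Named genes are the 12 members with the highest ratio among those with at least 5 TPM at 300 mg/kg/d, the 8 with the highest level, members of a fixed list, those with an onset dose of 1 or 11 mg/kg/d, the genes nearest the thresholds, and others by role. The members and the lists were chosen with earlier results of these data known, and roles were assigned after the values were seen. A further member, 1 of the 108, is counted in all totals but not reported here.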

Additional observations from a re-analysis of the deposited data

Results flagged for a closer look

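In 10 of the 108 stepwise genes 1 of the 5 libraries at 300 mg/kg/d lay away from its group, by a gap that is large against the range of the group; chance flags about 1 in 20 groups. In 5 of them replicate 14 was high: Synpo2l had 2.10 TPM there and 1.32 to 1.47 TPM in the others, Sh2d7 2.68 TPM and 1.37 to 1.66 TPM, Mapk4, an atypical MAP kinase, 6.90 TPM and 3.39 to 4.02 TPM, Foxf1 12.3 TPM and 7.15 to 8.08 TPM, and Kif27 5.17 TPM and 3.79 to 4.01 TPM. In 3 of them replicate 06 was low: Plekhd1 had 2.65 TPM there and 4.43 to 4.90 TPM in the others, Bcl11a, a zinc finger repressor, 1.47 TPM and 2.50 to 2.85 TPM, and Zdhhc23 6.48 TPM and 8.41 to 9.08 TPM. Replicate 13 was high for Col2a1, at 26.8 TPM beside 21.9 to 23.1 TPM, and replicate 07 for Gc, the vitamin D-binding protein, at 4.51 TPM beside 1.49 to 1.96 TPM. Over all 108 genes, replicate 14 was the highest of its group in 49 and replicate 06 the lowest in 49.

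Outside the named genes, 23 genes without a symbol met the same thresholds of order, level and ratio. They were not described here.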

How the results depend on the processing

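The number of stepwise genes, 108, fell to 31 with a ratio of 2 and to 39 with a minimum of 5 TPM, and ranged from 51 to 149 when 1 library was left out; the other settings of scale and order gave 72 to 107. Onset at 100 mg/kg/d or below held for 23 genes, 42 on TMM-scaled CPM and 68 without replicates 05 and 18 at 100 mg/kg/d, a setting in which the criterion at that dose rests on replicate 19 alone. The 69 genes without overlap at 300 mg/kg/d became 68 to 83. Members called higher at 300 mg/kg/d were 31, 12 with the sample code as a term and 10 to 33 without 1 library, the lowest without corn oil replicate 15; without corn oil replicates 01 and 08 they were 14 and 16, and without replicates 13, 14, 20 and 07 at 300 mg/kg/d 18, 19, 15 and 20. Genes called in either direction at 300 mg/kg/d were 432, 746 with DESeq2, 270 with the sample code, 835 with the 2 groups alone, 869 without replicates 05 and 18, and 212 to 432 without 1 library. At 100 mg/kg/d they were 274, 910 with DESeq2, 45 with the 2 groups alone, 73 without replicates 05 and 18, and 93 to 4250 without 1 library, the highest without replicate 19 of that dose. At 11 mg/kg/d they were 0, 26 with DESeq2, 19 with no filter on low counts, 1 with the sample code, 10 with the 2 groups alone, 19 without replicates 05 and 18, and 0 to 2 without 1 library. At 1 mg/kg/d they were 0, 1 with no filter and 3 with the 2 groups alone. The cause of these differences was not tested. Log2 fold changes at 300 mg/kg/d of 29 named genes kept their sign in all 319 alternatives, and 12 moved by more than the spread. No paired analysis was possible because the dose groups share no replicate numbers; the sample code, which they do share, was fitted as a term with the values above. Depth limits the weakly expressed genes, and 16 stepwise genes had fewer than 10 mean counts in corn oil.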
